A study of Mus musculus with 8 samples.

Results

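Arc and 7 other neuronal genes that neuronal activity is known to regulate, Homer1, Nptx1, Nptx2, Nrn1, Plk2, Rgs2 and Rheb, were followed across 8 libraries of polyribosome-associated mRNA from mouse brain. They are 8 of the 21643 genes with a symbol in the count table, and each was represented by its transcript row of highest summed count, with all 3 rows of Homer1 given because they belong to different splice forms. All 8 genes passed the low-count filter. The libraries came from C57Bl/6 mice aged 7 to 9 weeks that were fear conditioned to a context or, as controls, exposed to the context alone, and tissue was taken 1 h or 6 h after the session. There was 1 library for each of hippocampus conditioned 6 h, cortex conditioned 6 h, hippocampus control 6 h, cortex control 6 h, hippocampus conditioned 1 h, cortex conditioned 1 h, hippocampus control 1 h and cortex control 1 h, where cortex stands for frontal cortex. No group therefore had a replicate, and no untrained group was analysed here. The extraction protocol describes dissection of the prefrontal cortex and does not mention the hippocampus. The design text names 8 mice, while the labels do not say how many animals entered a library. Each p-value below therefore weighs a difference against the spread among libraries, some of which may be technical.

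A message that carries several ribosomes sediments with the polyribosomes, so the fraction is enriched in mRNA that is being translated. Synaptic activity raises calcium in the postsynaptic neuron, and kinase cascades then switch on early genes, some of which encode transcription factors and others proteins that act at the synapse itself. The proteins of the genes described here adjust receptor number, scaffold shape, trans-synaptic adhesion, G protein signalling and local protein synthesis. In hippocampus and frontal cortex, Arc in particular is used as a marker of recently active neurons.

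The libraries held between 2370973 counts (hippocampus control 6 h) and 5296986 counts (cortex conditioned 6 h). By hippocampal excitatory neuron markers, the tissue labels were borne out in 6 libraries. Of 10 such markers, 9 were higher in hippocampus in edgeR's quasi-likelihood test. They summed to 779 to 1072 CPM (counts scaled to a common library size) in hippocampus and 188 to 264 CPM in cortex. Of 10 cortical excitatory neuron markers, 6 were lower in hippocampus and 1 was higher. Those markers summed to 1457 to 1908 CPM in cortex. In hippocampus they summed to 525 CPM (control 1 h), 769 CPM (conditioned 6 h) and 1057 CPM (control 6 h). The libraries labelled hippocampus and cortex of conditioned mice at 1 h did not follow their labels. Their counts differed by no more than sampling noise (variance ratio 1.06 over 11599 genes, where the next closest pair of libraries had 4.85), and their hippocampal markers summed to 541 and 537 CPM, between the tissues. They are shown separately below, were counted as 1 sample with their mean, and were left out of the main edgeR fits. They entered edgeR only in alternative fits, either as labelled or summed.

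**Figure D1:**
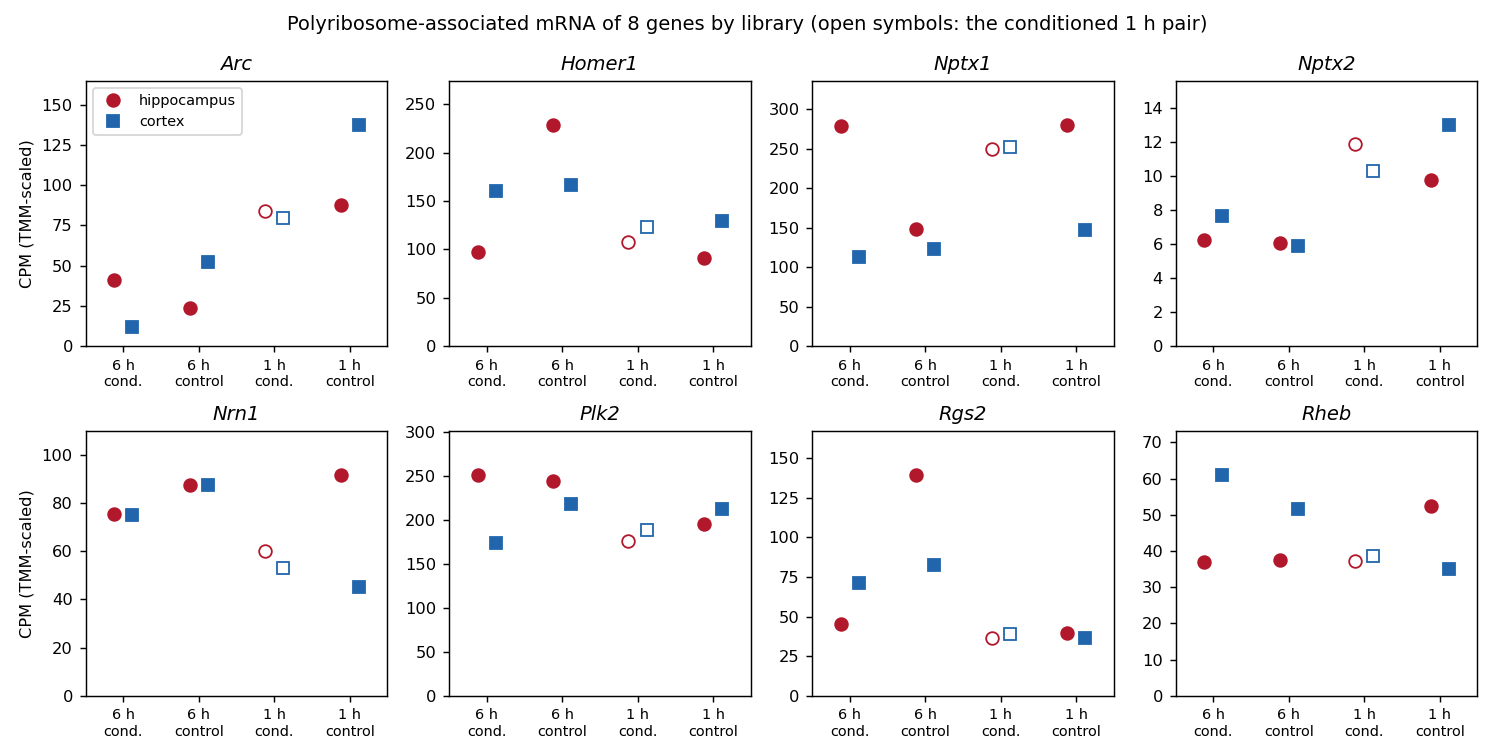
Level of each gene in every library, in CPM scaled by the TMM factors, at 6 h and 1 h in conditioned and control mice. Circles are hippocampus, squares are cortex, each point is 1 library, and open symbols mark the conditioned 1 h pair. Homer1 is its row NM_147176. Arc lies between 11.8 and 52.2 CPM at 6 h, below every 1 h library, and Rgs2 lies between 45.5 and 139 CPM at 6 h, above every 1 h library.

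Levels can be ranked between genes only per length. By the median over the 8 libraries, Plk2 was the most abundant of the genes at 72.9 CPM per kb, followed by Nrn1 at 46.5, Homer1 at 41.4 (row NM_147176), Nptx1 at 38.2, Arc at 21.6, Rheb at 21.4, Rgs2 at 14.1 and Nptx2 at 3.42 CPM per kb. Over the libraries Arc spanned 3.87 to 44.9 CPM per kb. Its highest library was 11.6 times its lowest, against 3.86 times for Rgs2, 2.50 for Homer1, 2.47 for Nptx1, 2.22 for Nptx2, 2.03 for Nrn1, 1.74 for Rheb and 1.45 for Plk2. With libraries ordered by level, 5 of the 7 steps from one to the next were wider than counting error for Arc (95% exact interval of the ratio). For Plk2 and Nptx2 none of the 7 steps was, so neighbouring libraries cannot be ordered for them, although some that lay farther apart did differ by more than counting error (for Nptx2, cortex control at 6 h over 1 h was 0.451, interval 0.278 to 0.722). Nptx2 rested on 11 to 49 counts a library, and every other gene on at least 43.

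At 6 h, 1 of the 8 genes was higher than at 1 h (Rgs2) and 1 was lower (Arc), in a comparison in which 23.2% of all 16123 rows passed (12.9% of all rows higher and 10.3% lower). These shares leave the count of 2 near the background. The median log2 change of the 8 genes was 0.15, beside -0.03 for all rows tested. The test was edgeR's quasi-likelihood fit with tissue, time and training as terms on the 6 separable libraries, in which time rests on the 4 control libraries, with Benjamini-Hochberg adjustment over all rows at 0.05. In these tissue samples, fewer neurons that carry a message and less message in each neuron cannot be told apart.

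Arc encodes a cytoskeleton-associated protein that recruits the endocytic machinery to remove AMPA receptors from the synapse. It stood at 40.9 CPM in hippocampus conditioned, 11.8 in cortex conditioned, 23.8 in hippocampus control and 52.2 in cortex control mice at 6 h, against 83.7 and 79.5 CPM in the conditioned pair (hippocampus and cortex label), 87.5 in hippocampus control and 137 in cortex control mice at 1 h. Every 6 h library lay below every 1 h library, with 32.2 ± 17.9 CPM at 6 h (SD, n = 4) and 102 ± 30.6 CPM at 1 h (n = 3, the pair averaged). At 1 h, the pair and the hippocampus control differed by less than counting error, while the cortex control was 1.57 times the hippocampus control (95% counting interval 1.37 to 1.80). Arc fell by 1.49 on the log2 scale at 6 h (SE 0.51, edgeR adjusted p = 0.0378). Within controls, the level at 6 h was 0.272 times that at 1 h in hippocampus (0.194 to 0.374) and 0.380 times in cortex (0.327 to 0.441).

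Homer1 encodes a postsynaptic scaffold that links group I metabotropic glutamate receptors to IP3 receptors and to Shank proteins. Its most counted row, NM_147176, stood at 96.8 CPM in hippocampus conditioned, 160.0 in cortex conditioned, 229 in hippocampus control and 166 in cortex control mice at 6 h, against 108 and 123 CPM in the conditioned pair, 91.4 in hippocampus control and 130 in cortex control mice at 1 h. The times overlapped, and the hippocampus conditioned 6 h library lay among the 1 h libraries. The log2 change of 0.94 (SE 0.41) did not pass the test (edgeR adjusted p = 0.0929). It was 1.48 without the cortex control 6 h library and 0.36 without the hippocampus control 6 h library. With the offsets for GC content and length described below it was -0.21. The splice forms are taken up separately below.

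Nptx1 and Nptx2 encode neuronal pentraxins, secreted proteins that gather AMPA receptors on the facing membrane, and Nptx2 (also called Narp) is the activity-induced form. Nptx2 stood at 6.21 CPM in hippocampus conditioned, 7.63 in cortex conditioned, 6.09 in hippocampus control and 5.86 in cortex control mice at 6 h, against 11.9 and 10.3 CPM in the conditioned pair, 9.74 in hippocampus control and 12.98 in cortex control mice at 1 h. Like Arc, Nptx2 was lower in every 6 h library than in any 1 h library, but its log2 change of -0.88 (SE 0.52) did not pass (edgeR adjusted p = 0.207). It passed only when all 8 libraries were fitted as labelled (-0.75, edgeR adjusted p = 0.0408). That fit treats the libraries of the conditioned pair as separate samples, although they differed by no more than sampling noise. Nptx1 stood at 279 CPM in hippocampus conditioned, 113.5 in cortex conditioned, 149 in hippocampus control and 123 in cortex control mice at 6 h, against 249.5 and 252 CPM in the conditioned pair, 280.0 in hippocampus control and 146.5 in cortex control mice at 1 h. Its times overlapped, and the change of -0.50 (SE 0.39) did not pass (edgeR adjusted p = 0.355).

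Nrn1 encodes neuritin, a membrane-anchored protein that promotes growth of neurites and synapses. Its levels at 6 h were 75.4 CPM in hippocampus conditioned, 75.1 in cortex conditioned, 87.4 in hippocampus control and 87.4 in cortex control mice, and at 1 h they were 60.1 and 53.2 CPM in the conditioned pair, 91.6 in hippocampus control and 45.1 in cortex control mice. The 6 h libraries lay close together and within the range of the 1 h libraries, and the log2 change of 0.48 (SE 0.40) did not pass (edgeR adjusted p = 0.383). In controls the 6 h level was 0.954 times the 1 h level in hippocampus (0.788 to 1.15) and 1.94 times in cortex (1.62 to 2.33). The test of that difference, the tissue-by-time interaction, gave -0.93 on the log2 scale (SE 0.87, edgeR adjusted p = 1.0). Exons of Nrn1 overlap those of Fars2 on the opposite strand by 501 bases in the GRCm38 annotation, and the sources used here do not say whether counting used strand.

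Rgs2 encodes a regulator of G protein signalling that speeds the shut-off of Gq. It stood at 45.5 CPM in hippocampus conditioned, 71.1 in cortex conditioned, 139 in hippocampus control and 82.3 in cortex control mice at 6 h, against 36.1 and 39.2 CPM in the conditioned pair, 39.7 in hippocampus control and 36.3 in cortex control mice at 1 h. The 1 h libraries hardly varied (37.9 ± 1.69 CPM, SD, n = 3), and all 4 libraries at 6 h lay above them (84.6 ± 39.7 CPM). Rgs2 rose by 1.60 on the log2 scale at 6 h (SE 0.42, edgeR adjusted p = 0.0127). Within controls, the level at 6 h was 3.52 times that at 1 h in hippocampus (2.88 to 4.29) and 2.27 times in cortex (1.87 to 2.77).

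Plk2, a polo-like kinase that marks synaptic proteins for removal during prolonged activity, was the steadiest of the genes. Its level was 252 CPM in hippocampus conditioned, 173.5 in cortex conditioned, 244.5 in hippocampus control and 219 in cortex control mice at 6 h, against 177 and 188 CPM in the conditioned pair, 196 in hippocampus control and 212 in cortex control mice at 1 h. The times overlapped, with a log2 change of 0.23 (SE 0.39, edgeR adjusted p = 0.678). Rheb, the small GTPase that switches on mTORC1 and with it protein synthesis, had 37.0 CPM in hippocampus conditioned, 61.0 in cortex conditioned, 37.6 in hippocampus control and 51.6 in cortex control mice at 6 h, against 37.1 and 38.7 CPM in the conditioned pair, 52.4 in hippocampus control and 35.0 in cortex control mice at 1 h. Its times overlapped as well (log2 change 0.07, SE 0.42, edgeR adjusted p = 0.92), and in controls the level at 6 h was 0.718 times that at 1 h in hippocampus (0.539 to 0.945) and 1.48 times in cortex (1.20 to 1.83). No difference between the tissues in the change over time passed for any of the 8 genes (0% of 16824 rows tested, 229 rows at an unadjusted p under 0.05).

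Without overlap between the times, 3 of the 8 genes separated 6 h from 1 h (Arc, Nptx2 and Rgs2), beside 46.3% of all rows (22.9% higher at 6 h and 23.4% lower). Base composition moved with the times across the whole table. The log2 change was lower in transcripts of higher GC content, with Spearman's rho across genes of -0.72 in hippocampus controls (6536 genes) and -0.75 in cortex controls (7474 genes), and higher in longer ones (0.44 in hippocampus and 0.30 in cortex). The Arc transcript is 58.95% GC, more than 92.0% of genes, and it was lower at 6 h, while Rgs2 is 43.6% GC, more than 15.9% of genes, and was higher. With offsets for GC content and length, the change of Arc was -0.38 (edgeR adjusted p = 0.615) and that of Rgs2 was 0.75 (adjusted p = 0.178), so neither passed. Without the hippocampus control 6 h library, whose TMM factor of 0.762 stood apart from 0.990 to 1.10 in the others, the change of Arc was -0.88 (edgeR adjusted p = 0.18) and that of Rgs2 was 1.03 (adjusted p = 0.131). Both calls were also lost without the hippocampus control 1 h library (Arc -1.92, adjusted p = 0.178, Rgs2 1.59, adjusted p = 0.268) and without the cortex control 1 h library (Arc -0.83, adjusted p = 0.551, Rgs2 1.61, adjusted p = 0.171), and without the cortex control 6 h library Arc stood at -2.44.

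**Figure D2:**
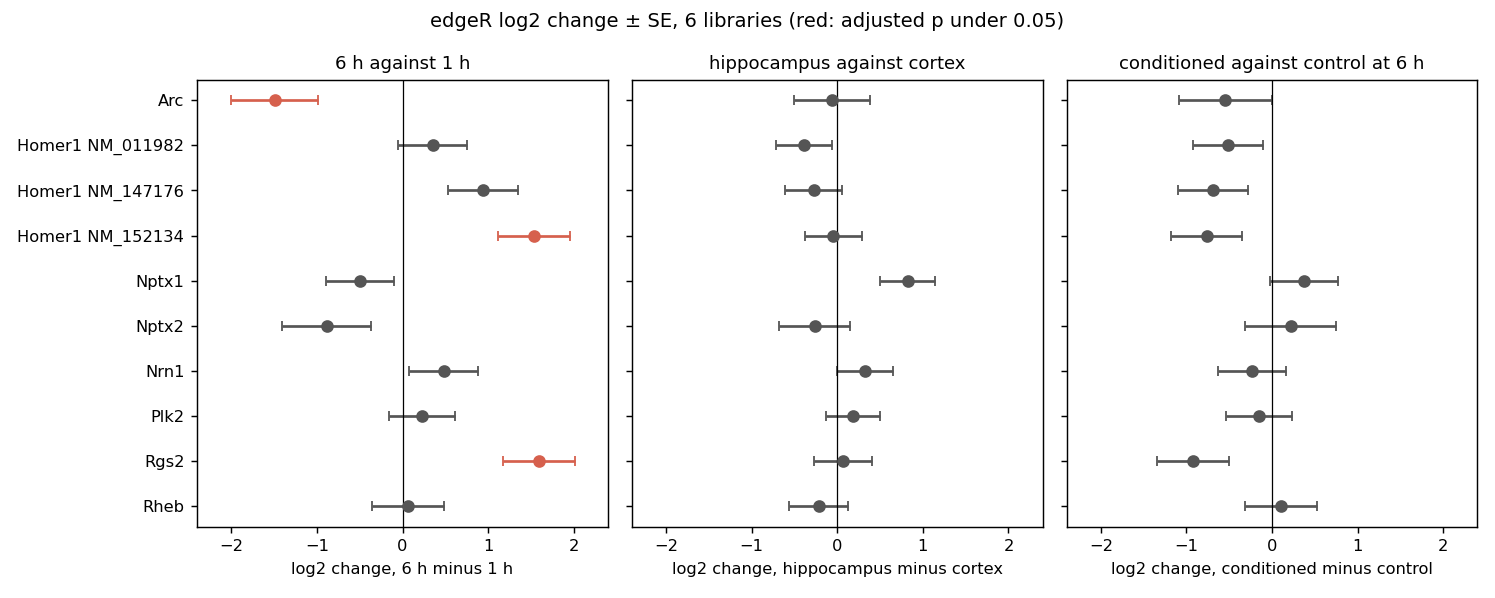
Log2 change with its standard error for the 8 genes and all 3 Homer1 rows in edgeR's fit of 6 libraries: 6 h minus 1 h (left), hippocampus minus cortex (middle) and conditioned minus control at 6 h (right). Red marks an adjusted p under 0.05 over all rows. Arc at -1.49, Homer1 row NM_152134 at 1.53 and Rgs2 at 1.60 are red in the left panel, and no point is red in the other panels.

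The Homer1 rows are shown at the point where their transcripts part, since the short and the long proteins differ in what follows. All 3 share exons up to chr13:93356065-93356079 (GRCm38, plus strand), whose 15 bases are in lower case below. The 34 bases in capitals are those that follow in each transcript, read from the reference of that build.
Homer1 NM_011982: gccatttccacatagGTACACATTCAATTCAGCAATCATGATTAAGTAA
Homer1 NM_147176: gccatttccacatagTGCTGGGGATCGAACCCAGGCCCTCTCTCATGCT
Homer1 NM_152134: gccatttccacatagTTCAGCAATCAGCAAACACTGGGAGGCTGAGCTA
In NM_011982 the capitals continue in the same exon, from base 93356080, and end with a stop codon, which gives a protein of 186 residues. In NM_147176 they begin at 93386345 and in NM_152134 at 93387524, in a further exon, and the reading frames run on to 366 and 370 residues. The short protein, known as Homer1a, keeps the domain that binds receptors and Shank but lacks the coiled coil through which the long forms link up, and it is known to be induced by activity. Of the 5713 bases of NM_011982, 82.0% lie in neither other row, while NM_147176 has only 36 bases (1.18%) of its own and NM_152134 has 41.4%. The sources used here do not say how the counting divided shared reads, so the rows are not independent. The 3 rows differed in every library, whereas 34.4% of genes with several rows had 2 rows of identical counts.

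The long-form row NM_152134 rose at 6 h, and the short-form row did not pass the test. NM_152134 had 58.7 CPM in hippocampus conditioned, 94.0 in cortex conditioned, 155 in hippocampus control and 100.2 in cortex control mice at 6 h, against 46.3 and 50.7 CPM in the conditioned pair, 45.5 in hippocampus control and 46.6 in cortex control mice at 1 h. The groups did not overlap, and the log2 change was 1.53 (SE 0.42, edgeR adjusted p = 0.0145). NM_011982 had 63.5 CPM in hippocampus conditioned, 106 in cortex conditioned, 126 in hippocampus control and 103 in cortex control mice at 6 h, against 95.5 and 100.1 CPM in the conditioned pair, 75.6 in hippocampus control and 118 in cortex control mice at 1 h. Its times overlapped fully, with 99.6 ± 26.0 CPM at 6 h (SD, n = 4) and 97.3 ± 21.4 CPM at 1 h (n = 3), and a change of 0.35 (SE 0.40, edgeR adjusted p = 0.53). The call for NM_152134 was lost without the hippocampus control 6 h library (0.99, adjusted p = 0.13), the hippocampus control 1 h library (1.48, adjusted p = 0.289) or the cortex control 1 h library (1.59, adjusted p = 0.179).

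Because scaling to depth cancels within a library, the ratio of the rows needs none. Differences between the rows in GC content and in length do not cancel (5713 bases for NM_011982, 3052 for NM_147176 and 4287 for NM_152134). How shared reads were divided is also unknown. The ratio therefore describes counts and cannot be read as usage of the forms. For each count of NM_147176, the short form had 0.656 counts in hippocampus conditioned, 0.663 in cortex conditioned, 0.550 in hippocampus control and 0.621 in cortex control mice at 6 h, against 0.883 and 0.815 in the conditioned pair, 0.827 in hippocampus control and 0.914 in cortex control mice at 1 h. Every 6 h library had a lower ratio than every 1 h library. The log2 ratio differed by -0.48 between 6 h and 1 h, with an exact permutation p of 0.0571 (2-sided), the smallest that 4 samples against 3 allow. Against NM_152134 the short form differed by -1.02, and NM_152134 against NM_147176 by 0.55, each without overlap and each at the same exact permutation p of 0.0571 over 35 arrangements. Any 2 of these ratios fix the third, so they are not separate results. The arrangements took no account of tissue or training, and the ratios were added after the values were seen. How often row ratios of other genes separate the times is not given here. The rows NM_011982, NM_147176 and NM_152134 are 36.9%, 41.3% and 37.8% GC. With offsets for GC content and length the changes were -1.46, -0.21 and -0.12, of which that of NM_011982 passed (edgeR adjusted p = 0.011). That row lies at the edge of the GC range, with only 0.59% of genes lower, and its change without offsets was 0.35. Its value therefore depends strongly on the offset fitted there.

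**Figure D3:**
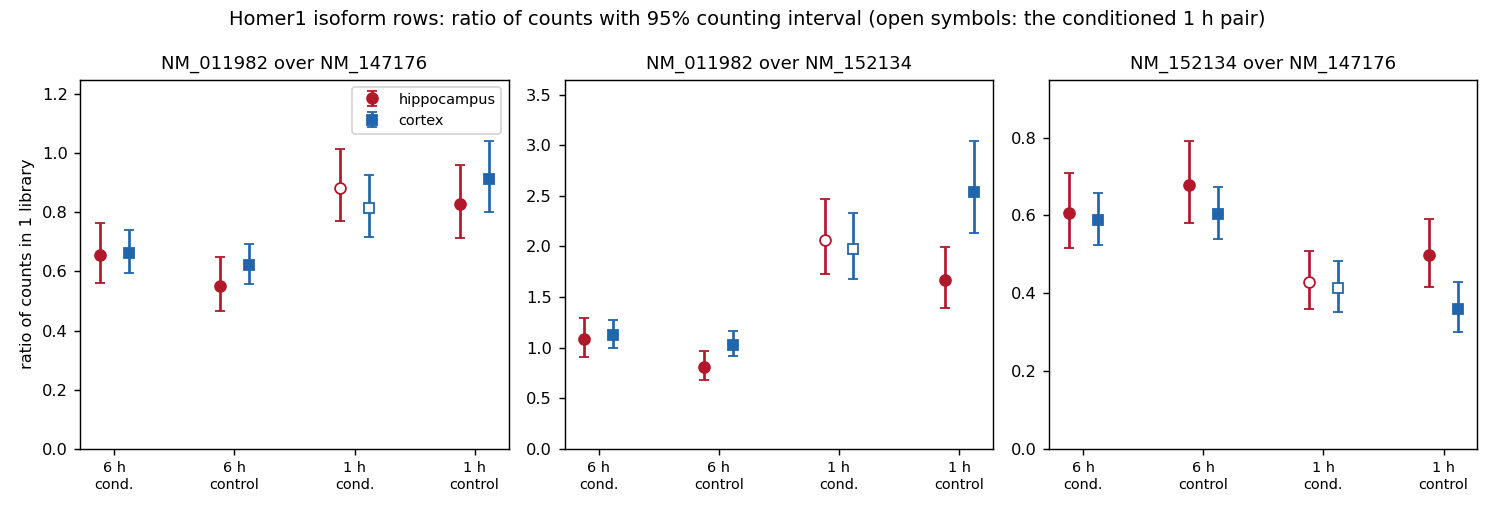
Ratio of counts between the Homer1 rows in each library, with 95% counting intervals, at 6 h and 1 h in conditioned and control mice; circles are hippocampus, squares are cortex, open symbols are the conditioned 1 h pair. NM_011982 over NM_147176 lies between 0.550 and 0.663 at 6 h and between 0.815 and 0.914 at 1 h.

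Whether conditioning altered the genes could be tested at 6 h, over the 4 libraries of that time. None of the 8 genes passed, and neither did any other row (0% of 16123, with 666 rows at an unadjusted p under 0.05 in edgeR, and 0 rows in DESeq2 and limma-voom with 497 and 705 unadjusted). The median log2 change of the 8 genes was -0.19, beside 0.02 for all rows. The change nearest to the threshold was that of Rgs2, at -0.92 (SE 0.42, edgeR adjusted p = 0.911), followed by Homer1 at -0.69 (SE 0.41), Arc at -0.54 (SE 0.54) and Nptx1 at 0.37 (SE 0.40). The others were between -0.23 (Nrn1) and 0.22 (Nptx2).

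Arc took opposite directions in the tissues. At 6 h its level in conditioned mice was 1.72 times that of controls in hippocampus (178 against 43 counts, 95% counting interval 1.23 to 2.46) and 0.227 times that of controls in cortex (62 against 276 counts, 0.169 to 0.299). Each ratio compares 1 library with 1 library, and its interval covers counting error only. The hippocampal ratio rests on the control library with the lowest TMM factor, 0.762. With offsets for GC content and length, the training change of Arc over both tissues was -1.15, beside -0.54 without them. The interaction was not fitted with offsets, so the part of base composition in it was not tested. The tissue-by-training interaction was 2.69 on the log2 scale (SE 0.76, unadjusted p = 0.00124 in edgeR), the second smallest p among 16824 rows, but the adjusted p was 1.0. Opposite directions with both intervals clear of 1 were found in 7.86% of rows. The same interaction was positive in 12 of the 15 activity-induced transcription factors tested, with a median of 1.21 beside 0.0036 for all rows. It was positive in 18 of 30 other activity-regulated effectors (median 0.51). The share of all rows with a positive interaction is not given here. These values come from the same libraries as that of Arc, so they are not separate support for it. Among the factors the smallest unadjusted p-values in edgeR were 0.00753 for Nr4a1, 0.0167 for Junb, 0.0177 for Egr3 and 0.0388 for Fosb, all 4 with a positive interaction, and none passed (edgeR adjusted p = 1.0 for each). In the same cortex libraries, the 9 striatal projection neuron markers summed to 272 CPM in conditioned and 521 CPM in control mice, with none at 0, and their part in the difference was not tested.

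For Rgs2, Homer1 and Nptx1 the ratio of single libraries lay farther from 1 in hippocampus than in cortex. The libraries as wholes differed in the same way. Between conditioned and control at 6 h, the variance ratio was 83.7 in hippocampus (10647 genes) and 5.19 in cortex (11833 genes). The wider ratios are thus not particular to these genes. In hippocampus, Rgs2 in conditioned mice was 0.327 times its level in controls (0.270 to 0.395), Homer1 0.424 times (0.369 to 0.487) and Nptx1 1.88 times (1.64 to 2.15). In cortex the same ratios were 0.865 for Rgs2 (0.751 to 0.995), 0.963 for Homer1 (0.875 to 1.06) and 0.923 for Nptx1 (0.825 to 1.03). All 3 Homer1 rows were lower in conditioned hippocampus, at 0.506 for NM_011982 and 0.379 for NM_152134 beside 1.03 and 0.938 in cortex. Plk2 showed the reverse arrangement, with 1.03 in hippocampus (0.921 to 1.15) and 0.793 in cortex (0.726 to 0.866). None of these differences between tissues passed as an interaction (edgeR adjusted p = 1.0 for all 8 genes, 425 rows at an unadjusted p under 0.05). Without the cortex control 6 h library, the training change was -1.46 for Rgs2 and -1.23 for Homer1. Without the hippocampus control 6 h library it was -0.39 for Rgs2 and -0.12 for Homer1.

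**Figure D4:**
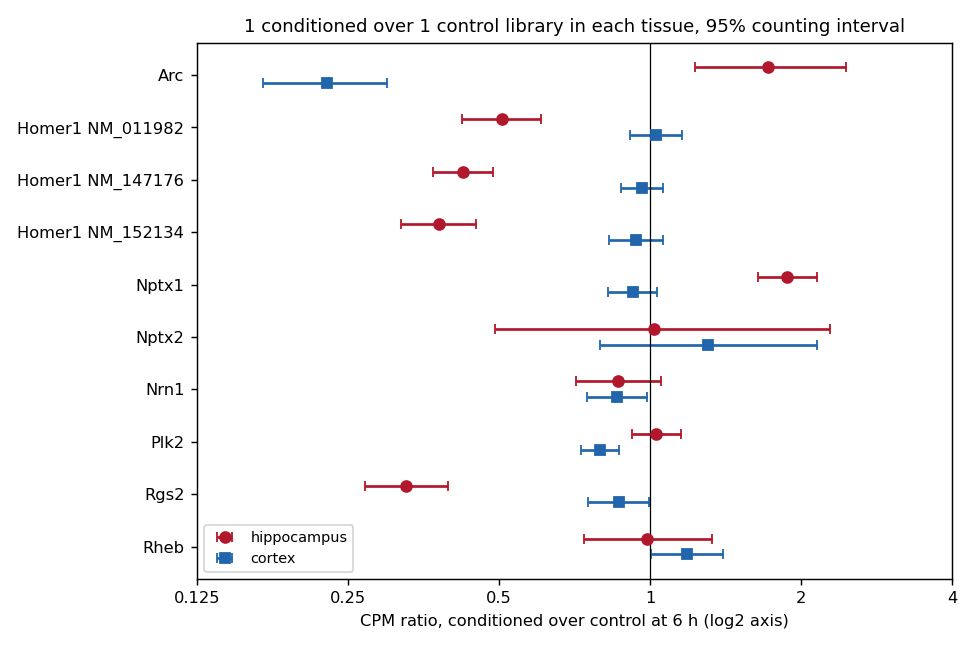
CPM in the conditioned library over CPM in the control library at 6 h, on a log2 axis, for each gene and all 3 Homer1 rows, with 95% counting intervals; circles are hippocampus and squares are cortex, and the line marks 1. Arc lies at 1.72 in hippocampus and at 0.227 in cortex, while the Homer1 rows and Rgs2 lie below 1 in hippocampus and near it in cortex.

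At 1 h, the conditioned pair can only be set beside the controls, as a mixture of tissues. Arc averaged 81.6 CPM in the pair, 0.726 times the mean of the 2 controls and below each of them. Plk2 was also below each control (183 CPM, 0.894 times their mean). For both genes the hippocampus control stood within counting error of the nearer library of the pair. It was 1.045 times that library for Arc (0.901 to 1.21) and 1.04 times for Plk2 (0.945 to 1.15). Homer1 (row NM_147176), Nptx1, Nptx2, Nrn1, Rgs2 and Rheb lay between the controls. Of the other Homer1 rows, NM_011982 also lay between them, and NM_152134 lay slightly above each (48.5 CPM in the pair, 45.5 and 46.6 in the controls). No test was made, because this is 1 sample.

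None of the 8 genes passed the test of hippocampus against cortex, in a comparison that called 3.72% of rows. Nptx1 came nearest, at 236 ± 75.4 CPM in hippocampus and 128 ± 17.0 CPM in cortex (SD, n = 3 each), with a log2 difference of 0.82 (SE 0.32, edgeR adjusted p = 0.217). It was higher in hippocampus in each of the 3 conditions, by 2.46 times in conditioned mice at 6 h (2.23 to 2.72), 1.21 times in controls at 6 h (1.05 to 1.40) and 1.91 times in controls at 1 h (1.73 to 2.12). It passed with offsets for GC content and length (1.03, edgeR adjusted p = 0.0105). When a library was left out, the log2 difference ranged from 0.58 to 1.07. It was lowest without the hippocampus conditioned 6 h library and highest without the cortex control 6 h library. With all 8 libraries as labelled it was 0.62. The remaining differences were small, between -0.28 (Homer1) and 0.32 (Nrn1). For Arc the small difference of -0.07 (SE 0.44) averaged over opposite ratios, since hippocampus was 3.46 times cortex in conditioned mice at 6 h, 0.456 times in controls at 6 h and 0.637 times in controls at 1 h.

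Correlations among the 8 genes ran in both directions. The highest Pearson correlation of log2 CPM over 7 samples was between Homer1 and Rgs2 (0.89), followed by Arc and Nptx2 (0.67), and the lowest was between Homer1 and Nptx1 (-0.80). Arc and Rgs2 correlated at -0.70. These samples share time, tissue and base composition, and the values are descriptions over 7 points.

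Among 6352 genes with a mean log2 CPM of at least 4, the patterns most like that of Arc were those of Lars2 (r = 0.995), Arpc3 (0.971), Gtf3c4 (0.963), Hexim1 (0.959) and Sfxn5 (0.959). Lars2 also matched Arc in size, with a log2 change of -1.80 at 6 h, while the others changed by -0.15 to -0.57. Closest to Homer1 were Flrt1 (0.983) and Cand1 (0.982), to Nptx1 Gprc5b (0.994), and to Nptx2 Smarcb1 (0.986). Closest to Nrn1 were Tprkb (0.985) and Pcnp (0.984), and to Rgs2 Chd9 (0.992) and Kcnip4 (0.991). Rheb and Plk2 had the weakest matches, with Rhou (0.944) and Fam76a (0.932) for Rheb, and with Clip4 (0.920) and Ccnt2 (0.918) for Plk2.

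Other activity-regulated effector genes, a list that runs from enzymes and secreted factors to a potassium channel and a neurofilament subunit, were mixed at 6 h against 1 h. Of 32 genes, 28 were tested, with a median log2 change of -0.29. Of these, 3 were higher and 5 lower, where 12.9% of all rows were higher and 10.3% lower. The effectors of smallest p were Nefm, a neurofilament subunit (2.16), and Bdnf, a neurotrophin (1.73). Next came Dusp6, a phosphatase of ERK (-1.54), and Vgf, a secreted neuropeptide precursor (-1.41). Bdnf thus went the way of Rgs2, and Dusp6 and Vgf that of Arc. The activity-induced transcription factors that regulate such genes had 6 lower and 1 higher of 15 tested among 18, where 10.3% of all rows were lower and 12.9% higher. Their median was -1.24, and -0.75 with offsets for GC content and length. Nr4a1 (-2.29), Egr4 (-1.91) and Egr3 (-1.75) were lower, as Arc was, and Klf6 (1.49) was higher.

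Partners and substrates of the 8 proteins include AMPA receptor subunits, G proteins and endocytic factors, and 39 were tested. At 6 h against 1 h, 9 were higher and 3 lower, where 12.9% of all rows were higher and 10.3% lower. Their median was 0.16. The partners of smallest p were Gria3 and Gria2, subunits of the AMPA receptor (2.16 and 1.61). With them were Fmr1, which encodes the RNA-binding protein FMRP (2.03), and Gnai1, a G protein subunit (2.01). With offsets for GC content and length, 811 rows passed in all, against 3745 without offsets. In the lists, 2 effectors were then higher and 2 lower, 3 transcription factors were lower and 2 partners were higher. These were not all calls of the fit without offsets, in which Dlgap1 and Homer2 (both partners), Syt4 (an effector) and Nr4a3 (a transcription factor) had not passed, so that none of its 12 partner calls was kept. Without the hippocampus control 6 h library, the median log2 change was -0.265 for effectors, -0.80 for transcription factors and 0.18 for partners. Without the cortex control 6 h library, the medians were -0.57, -1.62 and 0.29. Each of these fits keeps only the other tissue's control library at 6 h, so calls are not counted for them.

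Between hippocampus and cortex, where 3.72% of all rows passed, calls were made in all 3 lists. Among the 28 effectors 1 was higher (Ptgs2, a prostaglandin synthase, 1.52) and 4 lower, led by the cell cycle inhibitor Cdkn1a (-2.22), Ier5 (-1.91) and Rgs4 (-1.79), a relative of Rgs2. Among the 15 transcription factors Nr4a3 (1.696), Nr4a2 (1.22) and Jun (1.22) were higher and Egr1 (-1.25) was lower. Among the 39 partners Gria1 (1.58), an AMPA receptor subunit, was higher, and Rgs4, which is also in this list, was lower. No gene of the 3 lists passed in conditioned against control mice at 6 h.

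Promoters were matched for 4 of the 8 genes (Homer1, Plk2, Rgs2 and Rheb), with 5 entries in the RefSeq table of GRCm38.p6. The 3 printed here are those with a cAMP response element (CRE, TGACGTCA) or an Egr site (GCGNGGGCG), and that of Homer1, whose levels followed those of Rgs2 most closely. Each runs over the 250 bases before the start, 5′ to 3′ on the gene's strand, with capitals marking a match on either strand to a motif or to TGACG, the core of the CRE. They lie at chr13:93303507-93303756 (Homer1, plus strand), chr13:110394794-110395043 (Plk2, plus strand) and chr1:144004150-144004399 (Rgs2, minus strand).
Homer1: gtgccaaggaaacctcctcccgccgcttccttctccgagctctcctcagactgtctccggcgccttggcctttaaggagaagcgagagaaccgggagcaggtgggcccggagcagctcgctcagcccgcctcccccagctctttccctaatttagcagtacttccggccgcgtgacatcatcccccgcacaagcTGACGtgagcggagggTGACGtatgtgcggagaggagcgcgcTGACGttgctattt
Plk2: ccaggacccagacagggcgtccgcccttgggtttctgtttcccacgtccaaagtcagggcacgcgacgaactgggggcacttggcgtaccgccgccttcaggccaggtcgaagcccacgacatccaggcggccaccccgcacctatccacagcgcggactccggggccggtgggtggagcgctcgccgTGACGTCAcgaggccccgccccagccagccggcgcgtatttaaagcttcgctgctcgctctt
Rgs2: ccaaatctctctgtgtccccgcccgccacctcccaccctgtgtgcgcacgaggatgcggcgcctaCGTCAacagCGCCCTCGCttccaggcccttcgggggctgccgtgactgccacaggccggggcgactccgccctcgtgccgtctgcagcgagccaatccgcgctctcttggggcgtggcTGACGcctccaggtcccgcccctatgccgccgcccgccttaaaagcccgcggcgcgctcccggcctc
Plk2, the steadiest of the genes over the libraries, holds the whole CRE 62 bases before its start, as 1.79% of 32851 promoters do, each searched from 250 bases before to 50 after the start. Rgs2 holds an Egr site at -176, as 5.55% of promoters do, and CRE cores at -185 and -67. The Homer1 promoter shown holds 3 CRE cores, at -56, -40 and -14, and that of Rheb 1 at -247, and 20.8% of promoters hold at least 1. The start of that Homer1 promoter lies upstream of the annotated start of each row whose levels are given here (93304495 for NM_011982, 93304799 for NM_147176 and 93308034 for NM_152134). The CRE core was added to the search after the values were seen. In Plk2 it matches at -62 and -59, within the CRE, and again 21 bases after the start, outside the bases printed. No promoter of the 4 genes holds AP-1 (TGANTCA, in 7.81% of promoters) or a CArG box (1.63%). The second Homer1 entry, chr13:93307784-93308033, adjoins the start of NM_152134 and holds no match. These matches describe letters in a window and are not evidence of binding.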

How the data were processed

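The values are the authors' deposited read counts, whole numbers per transcript of RefSeq, with no normalisation. The submitters' processing notes name the tools TopHat 1.3.1, CASAVA 1.7, limma 3.12.3 and edgeR 2.612 and the build mm9, without saying what each was used for. Per the labels' protocols, libraries were depleted of ribosomal RNA, reverse transcribed from mixed hexamer and poly A priming, and amplified isothermally and by PCR, so counts are not independent molecules and intervals cover counting error only. The sources used here do not say how shared or antisense reads were counted.

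Of 28157 rows, 97.9% were matched to a symbol through RefSeq and GENCODE tables of GRCm38, which also gave lengths, GC content and coordinates. Tests used edgeR 4.0.16 in R 4.3.3 on the counts (TMM factors, default low-count filter, robust quasi-likelihood fit, 2 residual degrees of freedom, 1 for an interaction). DESeq2 1.42.0 and limma 3.58.1 (voom) were alternatives, and mgcv 1.9.3 gave the GC and length offsets. CPM for genes of like pattern used a prior count of 2 on the log2 scale.

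The 8 genes, the gene lists and the design were chosen with earlier results of these data known. Named genes were all 8 genes and all Homer1 rows, the 5 genes most like Arc and the 2 most like each other gene (the second for Nptx1 and for Nptx2 is not reported here), and up to 4 genes of each context list by smallest p. The isoform ratios, the ratios of single libraries and the CRE core were added after the values were seen.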

Additional observations from a re-analysis of the deposited data

Results flagged for a closer look

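In 3 instances the hippocampus and the cortex moved in opposite directions under the same comparison, with both counting intervals clear of 1. The 8 genes with all 3 Homer1 rows were screened, for training at 6 h and for time in controls. Over all rows, 7.86% met this for training, and the share for time is not given here. The difference between the tissues was tested in each instance as an edgeR interaction. Arc in conditioned against control mice at 6 h differed between hippocampus and cortex by 2.69 on the log2 scale (unadjusted p = 0.00124, edgeR adjusted p = 1.0), from 1 library a group. Rheb at 6 h against 1 h in controls differed by -1.08 (edgeR adjusted p = 1.0). Homer1 row NM_011982 at 6 h was 1.66 times its 1 h level in hippocampus controls (1.40 to 1.97) and 0.872 times in cortex controls (0.768 to 0.990), a difference of 0.51 (edgeR adjusted p = 1.0). None of the 3 passed the adjustment over all rows.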

How the results depend on the processing

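Over all alternatives, the number of rows passing at 6 h against 1 h was 3745 as reported, 6915 with all 8 libraries, 6167 with the conditioned 1 h pair summed, 811 with GC and length offsets, 2392 with the rows of a gene summed, and 0 to 6966 when a library was left out. Of the 8 genes, 2 passed as reported, 3 with all 8 libraries (Nptx2 in addition, at -0.75, edgeR adjusted p = 0.041) and 0 with GC and length offsets. Only Rgs2 passed with upper-quartile factors (1.44, edgeR adjusted p = 0.034), where Arc did not (-1.61, adjusted p = 0.062). The same held with rows summed (Rgs2 1.63, edgeR adjusted p = 0.022, Arc -1.46, adjusted p = 0.069). When a library was left out, Arc ranged from -2.44 to -0.83 and Rgs2 from 1.03 to 2.10. Hippocampus against cortex gave 600 rows as reported, 0 with all 8 libraries, 921 without the low-count filter, 992 with GC and length offsets, 337 with rows summed and 200 to 874 when a library was left out, with 0 of the 8 genes as reported, 1 with offsets and 0 to 1 when a library was left out. Conditioned against control at 6 h gave 0 rows as reported and 0 to 2067 when a library was left out, with 0 to 2 of the 8 genes. With GC and length offsets, the 6 h against 1 h changes of Homer1 (-0.21, NM_011982 -1.46, NM_152134 -0.12), Nptx1 (0.034), Nptx2 (0.21), Plk2 (-0.058) and Rheb (-0.15) turned their direction, as did Arc (0.29) and Rgs2 (-0.093) between tissues and NM_011982 (0.081) and Nptx2 (-0.21) under training. Rheb also turned at 6 h with upper-quartile factors (-0.082), and under training with all 8 libraries (-0.043) or the pair summed (-0.012), where NM_152134 turned between tissues (0.0086). The cause was not tested. Leaving out a library turned the direction of values that had not passed: at 6 h, NM_011982 ranged from -0.17 to 0.86, Plk2 from -0.030 to 0.53 and Rheb from -0.44 to 0.64. Between tissues, Arc ranged from -0.90 to 0.43, NM_152134 from -0.43 to 0.29, Rgs2 from -0.33 to 0.44 and Rheb from -0.58 to 0.060. Under training, Arc ranged from -2.05 to 0.63, NM_011982 from -1.01 to 0.0062, Nptx1 from -0.029 to 0.77, Nptx2 from -0.057 to 0.40, Nrn1 from -0.51 to 0.0049, Plk2 from -0.43 to 0.091 and Rheb from -0.33 to 0.45. Arc, Rgs2 and NM_152134 kept their direction at 6 h in every library left out. The Homer1 ratios kept theirs in the 6 separable libraries and without the hippocampus control 6 h library. With a prior count of 0.5, 18 of 19 genes of like pattern were named again. No paired analysis was possible because the labels give no replicate numbers, beyond the tissues of a condition, which the additive fit already compares within each of the 3 conditions. With 1 library a group, a change in an individual tissue cannot be separated from that library, and Nptx2 is limited by its 11 to 49 counts.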
